A study of Mus musculus with 6 samples.

Results

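The 6 mRNAs of respiratory complex I that lie on the heavy-strand transcript of mouse mitochondrial DNA (mt-Nd1, mt-Nd2, mt-Nd3, mt-Nd4l, mt-Nd4 and mt-Nd5) were described in hippocampal microglia, the resident macrophages of the brain. They were chosen by gene symbol and make up 6 of the 54590 features in the count table, and all 6 passed the filter on low counts. Microglia came from mice 3 weeks after birth that carried the genotype Tmem119-tdTomato+/-, a red fluorescent reporter at a microglial gene. Of the 6 libraries, each made from the RNA of 3000 cells, 3 are controls (Ctrl) and 3 carry the label FGR, for animals whose growth in the womb was restricted according to the title of the series. The comparison asks how such growth restriction bears on microglial RNA. No label says which libraries came from separate animals, whether animals were pooled, or how growth was restricted, so a p-value here covers the spread from library to library, which may be technical.

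Complex I, NADH:ubiquinone oxidoreductase, takes electrons from NADH, passes them to ubiquinone and pumps protons across the inner mitochondrial membrane. Its membrane arm is built around 7 subunits encoded in mitochondrial DNA. The 6 studied here are read from the heavy-strand promoter as part of a long precursor, which is cut mainly at the tRNAs between the genes, and ND6 is read from the light strand. Microglia draw on both oxidative phosphorylation and glycolysis, and the balance between them is known to move with their activation state. In bulk RNA, a change in mitochondrial RNA per cell and a change in the cells sampled cannot be told apart.

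On chromosome M of GRCm38 the 6 genes have no introns and run on the plus strand in the order mt-Nd1 (2751 to 3707), mt-Nd2 (3914 to 4951), mt-Nd3 (9459 to 9806), mt-Nd4l (9877 to 10173), mt-Nd4 (10167 to 11544) and mt-Nd5 (11742 to 13565). Their lengths in that order are 957, 1038, 348, 297, 1378 and 1824 bases. The first 30 bases of each are shown from the GENCODE M21 transcripts, 5′ to 3′ with the annotated start codon in capitals, because the reading frames open directly at the gene's first base and on 5 different codons.
mt-Nd1: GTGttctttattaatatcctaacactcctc
mt-Nd2: ATAaatcctatcacccttgccatcatctac
mt-Nd3: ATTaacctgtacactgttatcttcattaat
mt-Nd4l: ATGccatctaccttcttcaacctcaccata
mt-Nd4: ATGctaaaaattattcttccctcactaatg
mt-Nd5: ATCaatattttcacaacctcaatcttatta

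The 3′ end of mt-Nd4 is shown because the gene stops after 1 base of its stop codon, in capitals, and the rest is known to be made by polyadenylation; the other 5 genes hold a whole stop codon.
mt-Nd4 end: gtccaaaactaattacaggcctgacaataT

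The borders at which members share bases with another mRNA are shown because a read across them belongs to both genes and can be lost in counting. mt-Nd4l and mt-Nd4, which sit on a shared mRNA, overlap by 7 bases (10167 to 10173, in capitals, with 30 bases on each side). mt-Nd5 overlaps the opposite-strand gene mt-Nd6 by 14 bases (13552 to 13565, in capitals, plus strand).
mt-Nd4l and mt-Nd4: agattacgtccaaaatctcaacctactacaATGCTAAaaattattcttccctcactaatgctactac
mt-Nd5 and mt-Nd6: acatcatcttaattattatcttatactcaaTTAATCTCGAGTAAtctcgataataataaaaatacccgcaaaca

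Libraries held 1553588 to 11364316 counts in all, of which the 6 mRNAs took 17244 to 113863. The chi-square of counts per feature was 2.63 between Ctrl libraries 1 and 2 and 2.77 between FGR libraries 1 and 2, against 20.4 to 51.7 for the other 13 pairs. Sampling alone would give about 2 if every fragment added 2 counts. Libraries 1 and 2 of each group were therefore summed to a single sample, so that n = 2 per group. Over the 6 members alone the chi-square per degree of freedom was 1.4 for the Ctrl pair and 7.11 for the FGR pair, so the FGR pair differed beyond counting noise in its make-up. That is close to the 7.19 between Ctrl library 2 and FGR library 2 and the 9.06 between FGR libraries 1 and 3. For the members alone, then, the chi-square did not set FGR libraries 1 and 2 apart from some pairs that were not summed. It grows with depth, in which these pairs differ, so it is not a distance between libraries. Between 62.1% and 68.4% of counts from 2 to 19 were even, so not every fragment added 2 counts. Where fragments add 1 or 2 counts, sampling alone gives a chi-square per feature under 2, and the summed pairs lay above that. Counting error was computed as if each fragment gave 2 counts. On that basis it ranged over the libraries from 0.65% to 1.73% for mt-Nd5, the deepest member, and from 5.08% to 14.9% for mt-Nd3, the shallowest, and it covers counting only, since PCR copies are not independent molecules.

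On chromosome M both ribosomal RNAs lay far above every mRNA per kb, and the 6 members lay between 5506 and 76026 counts per kb over all libraries. The 22 mitochondrial tRNAs had a median of 646 counts per kb, but 7 of them exceeded mt-Nd3, and mt-Tp, at 135343, exceeded every mRNA. Many nuclear labels did not match the tissue. Of 15 microglial markers 9 had under 100 counts, among them Tmem119 with 29, Cx3cr1 with 47 and C1qa with 3. Others were higher, with Sall1 at 4292, Aif1 at 2166 and P2ry12 at 873. Actb had 44. The summed CPM (counts relative to library size) of the microglial list was 258 to 299 in Ctrl and 220 to 284 in FGR. That of the neuronal list was 1201 to 1349 in Ctrl and 1130 to 1320 in FGR. Most of the neuronal sum came from Gad2 (21921 counts) and Slc17a7 (13888), while 3 of 8 neuronal markers had under 100 counts. No marker was at 0 over all libraries together. None of the 7 microglial markers that could be tested, of 15, was called between FGR and Ctrl. The endothelial list had the lowest median log2 fold change of the marker lists, -0.64, with 1 of 5 markers above 0. By edgeR 1 of the 5 had an unadjusted p under 0.05 and 0 were called. Its summed CPM was 260 to 314 in Ctrl and 259 to 316 in FGR. Most of that sum came from Pecam1 (8323 counts), while 2 of 5 endothelial markers had under 100 counts. The oligodendrocyte list had the highest median, 0.32, with 5 of 7 tested markers above 0 and 0 called. The part of these lists in the results was not tested. Nuclear rows are therefore named below only by their label.

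The strand setting of the counting is not given in the sources used here. A check on nuclear labels of the first 48 Mb of chromosome 4 used features inside the introns of 30 host genes. Counts lay in 20 of 20 features on the strand opposite the host and in 24 of 25 on the same strand. Their medians were 191 and 541 counts per kb. The opposite-strand features include the genes Dctn3 (646 counts) and Rpp25l (240 counts). Whether such features hold RNA of their own was not tested. The check also takes the positions of these nuclear labels as right, which was not tested. The check did not cover mitochondrial DNA, and whether RNA from its opposite strand adds to these rows was not tested. A level given for a member is the level of its row. mt-Nd6, the complex I gene of the light strand, stood at 1886 ± 168 (SD, n = 4 samples) TMM-scaled CPM per kb of gene length. TMM scales library sizes by a trimmed mean of ratios between samples. mt-Nd6 overlaps mt-Nd5, and its level lay between those of mt-Nd2 (1457) and mt-Nd5 (2322). The log2 ratio of mt-Nd5 to mt-Nd6 per kb was 0.30 ± 0.02 (SD, n = 4 samples), a smaller spread than for any of the 15 ratios between members. Over single libraries the ratio ran from 1.155-fold in Ctrl library 2 to 1.31-fold in Ctrl library 1, a spread that summing these libraries hides.

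Members of the family differed widely in level per kb. mt-Nd1, which encodes a subunit near the quinone site at the base of the membrane arm, was the highest. Its TMM-scaled CPM per kb was 2520, 2537 and 2285 in Ctrl libraries 1, 2 and 3 and 2642, 2568 and 2640 in the FGR libraries. Ctrl library 3 was the lowest, and the groups did not overlap on this scale. mt-Nd5, the large proton-pumping subunit at the far end of the membrane arm, came next at 2095, 2152 and 2190 in Ctrl and 2565, 2518 and 2433 in FGR. Here too every FGR library exceeded every Ctrl library on this scale. Such a separation held for 4.56% of features tested, and with library totals in place of TMM scaling for 0 of the 6 members.

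mt-Nd2 and mt-Nd4, which encode the pumping subunits between them, formed a middle pair. mt-Nd2 stood at 1360, 1430 and 1444 CPM per kb in Ctrl and 1467, 1629 and 1478 in FGR. FGR library 2 was highest, and on this scale there was no overlap. mt-Nd4 stood at 1472, 1466 and 1168 in Ctrl and 1470, 1562 and 1361 in FGR. The groups overlapped, and library 3 was the lowest of its group in both.

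The short genes were lowest. mt-Nd4l, the smallest core subunit of the membrane arm, stood at 656, 585 and 640 CPM per kb in Ctrl and 761, 669 and 690 in FGR. Again there was no overlap on this scale. mt-Nd3, whose product has a loop near the junction of the membrane and matrix arms, stood at 175, 180 and 169 in Ctrl and 154, 149 and 209 in FGR. FGR libraries 1 and 2 lay below all Ctrl libraries and FGR library 3 above them.

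**Figure D1:**
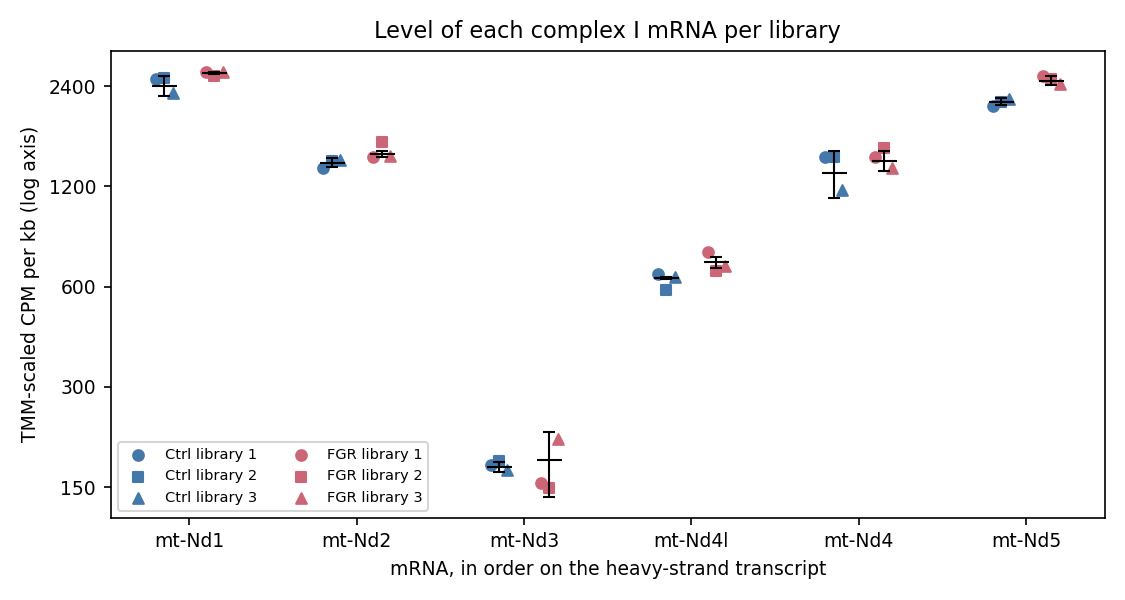
TMM-scaled CPM per kb (log axis) of each of the 6 mRNAs in every library, with Ctrl in blue and FGR in red, marker shape giving the library number and black bars the mean ± SD of the 2 samples of a group. The order from mt-Nd1 and mt-Nd5 at the top to mt-Nd3 at the bottom recurred in all 6 libraries, while mt-Nd2 and mt-Nd4 changed places.

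As the means over 4 samples the levels were 2517 ± 162 for mt-Nd1, 2322 ± 203 for mt-Nd5, 1457 ± 58.9 for mt-Nd2, 1375 ± 151 for mt-Nd4, 672 ± 45.5 for mt-Nd4l and 177 ± 23.7 for mt-Nd3 (CPM per kb, SD, n = 4). Ratios within a library do not depend on its scaling and were used to read the order. A pair was called separated where the log2 ratio per kb kept its sign in all 4 samples with a mean of at least 2 SD, and 13 of 15 pairs were. mt-Nd1 and mt-Nd5 were not, with a log2 ratio of 0.12 ± 0.10 (SD, n = 4), although mt-Nd1 was higher in all 6 libraries. mt-Nd2 and mt-Nd4 were not either, at 0.09 ± 0.17, with mt-Nd2 higher in 3 of 6 libraries. mt-Nd5 exceeded mt-Nd2 1.59-fold, and mt-Nd4 exceeded mt-Nd4l 2.04-fold although both lie on a shared mRNA. The widest step between neighbours was from mt-Nd4l to mt-Nd3, 3.83-fold, and mt-Nd1 exceeded mt-Nd3 14.3-fold.

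The length used bears on this order. With 100 bases added to each gene, mt-Nd5 moved above mt-Nd1 in 3 of 6 libraries (Ctrl library 3 and FGR libraries 1 and 2). With 100 bases taken off, mt-Nd4l went from 0.474 to 0.632 of the family's mean per kb and mt-Nd3 from 0.125 to 0.155. Neither change moved mt-Nd4l or mt-Nd3 from the bottom of the order in any library.

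Members also differed in how much of their length recurs in nuclear copies of mitochondrial DNA. A search of the annotated transcripts found a copy of at least 99% identity on chromosome 1 for 345 of the 348 bases of mt-Nd3 (99.7% identity, labelled Gm28438), for 294 of the 297 bases of mt-Nd4l (100% identity, Gm10222) and for the first 876 bases of mt-Nd4 (100% identity, Gm28439). It found none for mt-Nd1, mt-Nd2 or mt-Nd5, whose best matches reached 83.6%, 96.7% and 95.2% identity. The rows labelled with these 3 copies held 4, 0 and 10 counts over all libraries. As the markers do not bear out the nuclear labels, these counts do not say how many reads were placed at the copies. A read that matches both places equally well can be dropped or placed at either, and how such reads were treated is not given in the sources used here.

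Read against all 12 heavy-strand mRNAs, the 4 without such a copy (mt-Nd1, mt-Nd2, mt-Nd5 and mt-Cytb) lay between 1457 and 3513 CPM per kb. The 5 with a copy over nearly their whole length (mt-Nd3, mt-Nd4l, mt-Co2, mt-Co3 and mt-Atp6) lay between 177 and 2105. The groups overlapped through mt-Atp6, and the copied genes were also the shorter ones, at 297 to 784 bases against 957 to 1824, and the parts of copy and length in these levels were not tested. Of the 3 with a partial copy, mt-Co1 stood at 3618 and mt-Nd4 at 1375, while mt-Atp8, the shortest gene at 204 bases, stood at 418 with a copy over 21.1% of its length. If all counts of mt-Nd4 came from its 502 bases outside the copy, its level would be 3775 ± 414 CPM per kb (SD, n = 4), above mt-Nd1 in place of 1375 ± 151. This bound was added after the copies were seen. The part of the copies in the low levels of mt-Nd3 and mt-Nd4l was not tested. The members' levels that rest on bases with no near-identical copy among the annotated transcripts are those of mt-Nd1, mt-Nd2 and mt-Nd5. Nuclear sequence outside annotated transcripts was not searched.

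**Figure D2:**
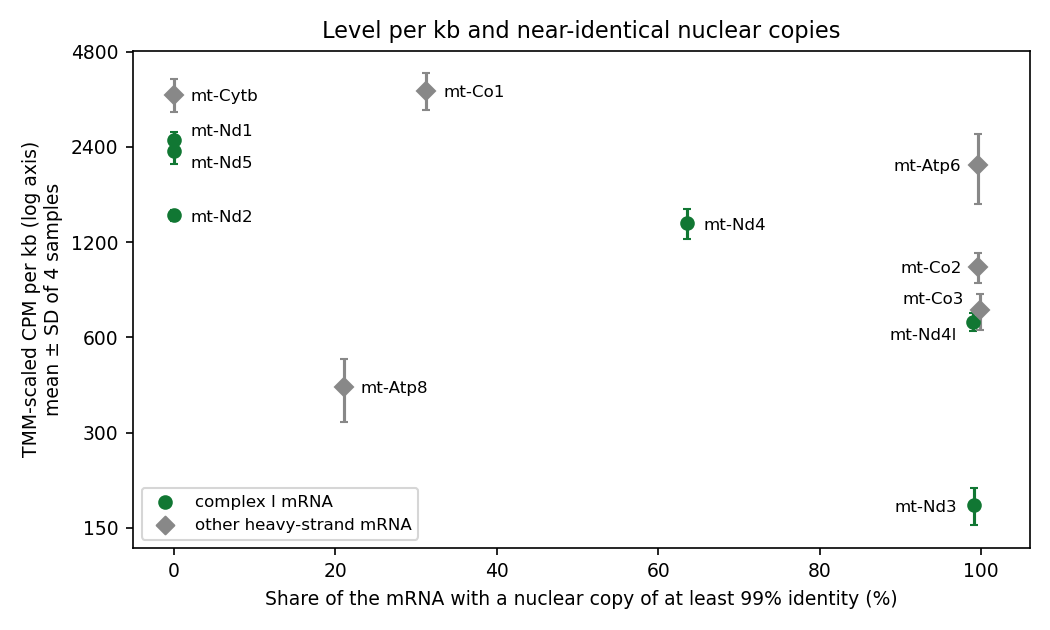
TMM-scaled CPM per kb (log axis, mean ± SD of 4 samples) of the 12 heavy-strand mRNAs against the share of each gene's length that has an annotated nuclear copy of at least 99% identity. Complex I mRNAs are green circles and the other mRNAs grey diamonds; mt-Nd3 and mt-Nd4l sit at the right with nearly whole copies, and mt-Nd1, mt-Nd2 and mt-Nd5 at the left with none.

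Among genes with no near-identical annotated copy, complex I mRNAs lay below the mRNA of cytochrome b, a complex III subunit. mt-Nd1 per kb was 0.719 times mt-Cytb and mt-Nd5 0.663 times, and both were lower in all 6 libraries. Against mt-Co1, the catalytic subunit of cytochrome oxidase, mt-Nd1 stood at 0.699 times, although mt-Co1 has a copy over 31.3% of its length.

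Between FGR and Ctrl microglia no member passed the test. The edgeR quasi-likelihood test over all 24149 features called 0 of 6 members and 0% of features at an adjusted p under 0.05, and 0 of 6 members against 1.35% of features (327) had an unadjusted p under 0.05. DESeq2 and limma-voom also called 0 features, with 211 and 227 at an unadjusted p under 0.05. With the replicate block, edgeR called 1 feature, which was no member. All 6 log2 fold changes were above 0 in the main fit, with a median of 0.12 against -0.03 over all features tested, but with library totals in place of TMM scaling mt-Nd2 and mt-Nd3 fell below 0 and mt-Nd4 was at 0. That scaling moved the median of all features to -0.11, and the members' median to 0.01.

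mt-Nd5 had the largest difference of the 6 in the main fit. Its TMM-scaled CPM was 3926 ± 97.7 in Ctrl samples and 4544 ± 149 in FGR samples (SD, n = 2). The log2 fold change was 0.21 (SE 0.27; edgeR, adjusted p = 0.9998). In libraries 1 and 2 the log2 ratio of FGR to Ctrl was 0.27, and in library 3 it was 0.15. The fold change was 0.11 with library totals and 0.17 (SE 0.13) with all 6 libraries kept separate.

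For mt-Nd4l the CPM was 189 ± 1.6 in Ctrl samples and 211 ± 8.3 in FGR samples, and the log2 fold change 0.16 (SE 0.28). For mt-Nd1 it was 2302 ± 163 and 2515 ± 15.7, and the log2 fold change 0.13 (SE 0.27), with 0.05 in libraries 1 and 2 and 0.21 in library 3. For these genes and mt-Nd5 the sign was positive under each alternative run.

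mt-Nd4 had a CPM of 1817 ± 294 in Ctrl samples and 1972 ± 137 in FGR samples. Its log2 fold change was 0.12 (SE 0.28), being 0.03 in libraries 1 and 2 and 0.22 in library 3. mt-Nd2 had 1467 ± 44.3 and 1558 ± 33.4, with a fold change of 0.09 (SE 0.27). mt-Nd3 had 60.1 ± 2.0 and 62.8 ± 13.9, with 0.07 (SE 0.31), which became -0.17 without FGR library 3. Its log2 ratio was -0.21 in libraries 1 and 2 and 0.31 in library 3, so both sets of libraries pointed opposite ways. Single libraries moved other values too: leaving out Ctrl library 3 gave 0.017 for mt-Nd4 and 0.172 for mt-Nd2, leaving out FGR library 3 gave 0.201 for mt-Nd4, mt-Nd2 was 0.044 without FGR library 2, and mt-Nd4l was 0.078 without FGR library 1. In the main edgeR fit the adjusted p was 0.9998 for each of the 6, and each SE exceeded its fold change.

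**Figure D3:**
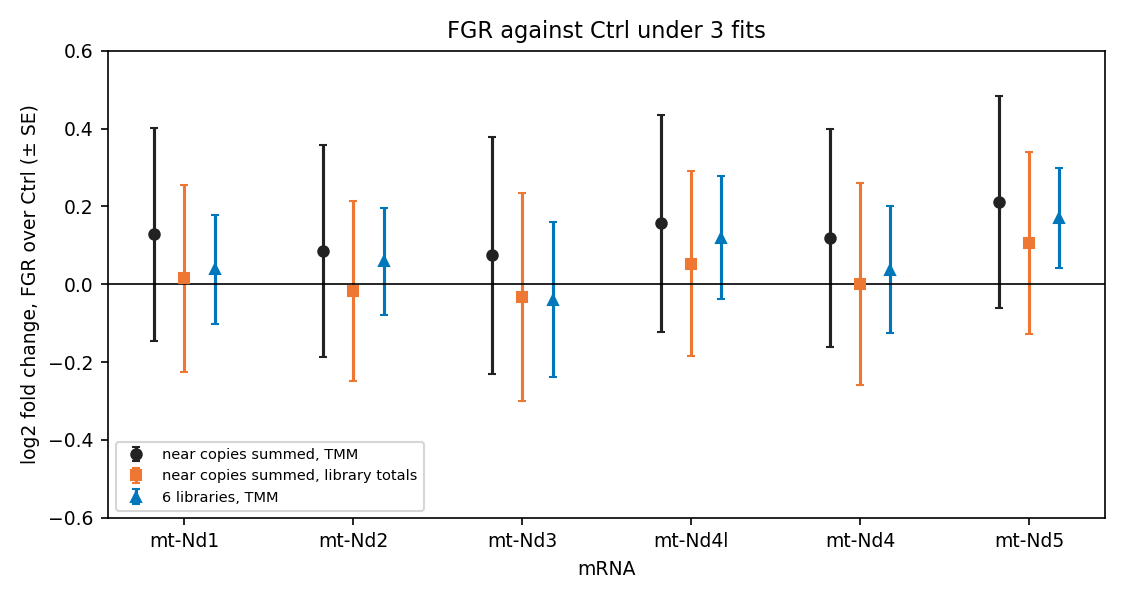
Log2 fold change of FGR over Ctrl (± SE) for each of the 6 mRNAs in the fit on summed near copies with TMM scaling (black circles), the same with library totals (orange squares) and the fit on 6 separate libraries (blue triangles). The SE bars of the black circles all cross 0, and mt-Nd2 and mt-Nd3 lie below 0 with library totals.

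Separation of the groups also hung on the scaling. On the scale of the 4 samples, 4 of 6 members (mt-Nd1, mt-Nd2, mt-Nd4l and mt-Nd5) had all 3 FGR libraries above all 3 Ctrl libraries, against 4.56% of all features, and 0 of 6 had all 3 below, against 5.42%. With the TMM factor of each library taken alone the count was 1 (mt-Nd5), against 3.94% of features, and with library totals it was 0, against 2.75%. Near copies count as separate libraries in these counts, and the 6 rows come largely from a shared precursor RNA.

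Summed over the 6 mRNAs, TMM-scaled CPM was 9927, 10094 and 9539 in Ctrl libraries 1, 2 and 3 and 11035, 11145 and 10651 in the FGR libraries. The sample means were 10862 ± 298 in FGR and 9761 ± 315 in Ctrl (SD, n = 2), a log2 difference of 0.15, with 0.15 in libraries 1 and 2 and 0.16 in library 3. The exact two-sided permutation test gave p = 0.3333 over 2 against 2 samples, the smallest it can give. As a share of all counts the family took 1.09%, 1.11% and 0.906% in Ctrl and 1.07%, 1.08% and 1.002% in FGR, where the groups overlapped (exact permutation p = 1 for 2 against 2). FGR minus Ctrl was 0.038 percentage points, and -0.058 without Ctrl library 3. The TMM factor was 1.12 for Ctrl libraries 1 and 2 and between 0.948 and 0.982 for the other 3 samples, which lowers the scaled values of those libraries against their share of counts.

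Measured against other mitochondrial transcripts, the family's share overlapped between the groups. Of the counts of the 12 heavy-strand mRNAs, the 6 took 46.2% ± 0.847 in Ctrl and 44.9% ± 1.70 in FGR (SD, n = 2), with library values from 43.0% to 46.8% that overlapped (exact permutation p = 0.6667). Per 100 counts of mitochondrial ribosomal RNA there were 6.77 ± 0.694 counts of the family in FGR and 7.33 ± 1.11 in Ctrl (exact permutation p = 0.6667). Library by library of the same number, FGR was below Ctrl in both measures. The share of the 12 mRNAs was 45.7% and 44.05% in Ctrl and FGR library 1, 45.4% and 43.0% in library 2 and 46.8% and 46.1% in library 3. The counts per 100 of ribosomal RNA were 8.16 and 7.35, 8.05 and 7.09, and 6.55 and 6.28. With libraries 1 and 2 as near copies these are 2 sets, too few for a paired test to reach its threshold. The other 6 heavy-strand mRNAs had a median log2 fold change of 0.20, 5 of 6 above 0, and none was called. mt-Nd6 had 0.21 (SE 0.27), mt-Rnr1 0.22 (SE 0.28) and mt-Rnr2 0.28 (SE 0.28). Values that involve the ribosomal RNAs depend on how much of them remained after library making. That amount was not tested.

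The share of each member within the family overlapped between the groups. mt-Nd5 gave 40.3% ± 2.30 of the family's counts in Ctrl samples and 41.8% ± 0.225 in FGR samples (SD, n = 2), with 38.5%, 38.9% and 41.9% in Ctrl libraries 1, 2 and 3 and 42.4%, 41.2% and 41.7% in FGR. Ctrl library 3 lay inside the FGR range, and without it the difference went from 1.57 to 3.20 percentage points. mt-Nd1 gave 23.2% ± 0.781 and 23.6% ± 0.905, mt-Nd4 18.1% ± 0.763 and 18.6% ± 2.42, and mt-Nd2 14.3% ± 0.086 and 15.05% ± 0.940 in FGR and Ctrl. mt-Nd4l gave 1.94% ± 0.023 and 1.94% ± 0.079, and mt-Nd3 0.580% ± 0.144 and 0.616% in FGR and Ctrl. None of the 6 shares passed the exact permutation test of 2 against 2 (p of 0.6667 to 1, adjusted p of 1 over the 6). Ctrl libraries also differed among themselves, as mt-Nd4 took 20.4% and 20.01% in libraries 1 and 2 and 16.9% in library 3.

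**Figure D4:**
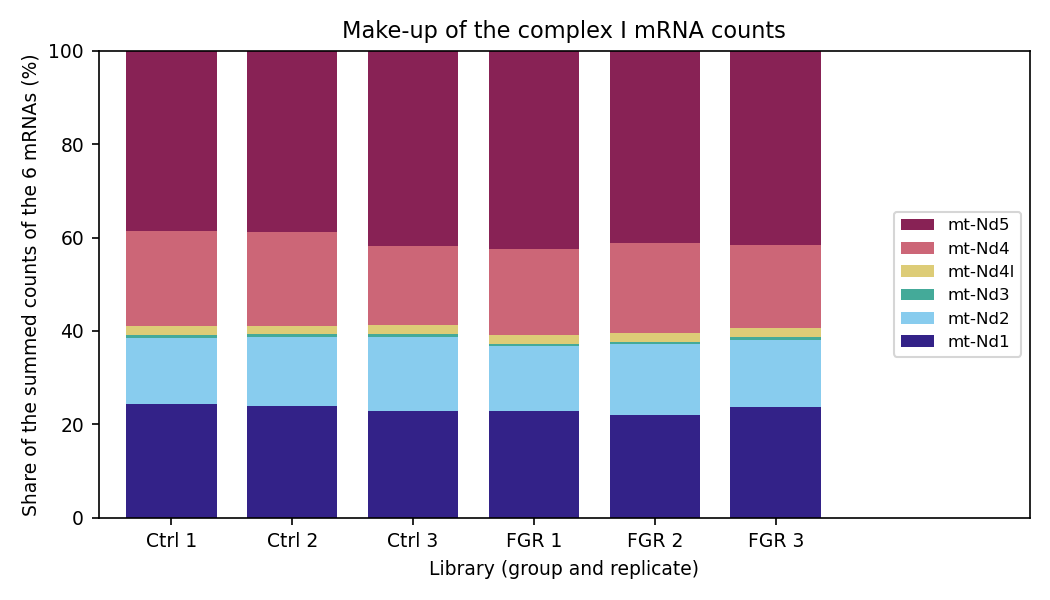
Share of the summed counts of the 6 mRNAs (%) taken by each mRNA in every library, stacked in gene order. mt-Nd5 took between 38.5% and 42.4% and mt-Nd3 under 1% in all 6 libraries, and no layer set FGR apart from Ctrl.

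Of the 15 log2 ratios between members per kb, 3 separated the groups over the 4 samples, each with the smallest exact permutation p of 2 against 2, 0.3333. Separation at that p is frequent without any difference, so these ratios are a description. The ratio of mt-Nd5 to mt-Nd2 was 0.73 ± 0.02 in FGR and 0.61 ± 0.01 in Ctrl, that of mt-Nd5 to mt-Nd4l was 1.81 ± 0.01 and 1.76 ± 0.02, and that of mt-Nd2 to mt-Nd4l was 1.08 ± 0.03 and 1.15 ± 0.03. Over single libraries the ratio of mt-Nd5 to mt-Nd2 stayed apart by a narrow margin, with the lowest FGR library at 1.546-fold and the highest Ctrl library at 1.541-fold, while the other ratios overlapped.

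The nuclear genes of complex I were examined under their labels, which the markers above do not bear out. The nuclear lists here and in the next paragraph were examined only in the main fit, with TMM scaling. The signs of some members hung on that scaling, and library totals moved the median of all features from -0.03 to -0.11. Of labels for the 7 core subunits, which carry the flavin, the iron-sulfur clusters and the quinone site, 7 were tested, 7 had a log2 fold change above 0 and none was called, with a median of 0.22 against -0.03 over all features. Among the values nearest the threshold were Ndufv1 at 0.92 (SE 0.75), Ndufs3 at 0.37 (SE 0.33) and Ndufs1 at 0.20 (SE 0.29). Of 29 labels for accessory subunits 21 were tested, 15 lay above 0 with a median of 0.11, and none was called; Ndufa5 had 0.61, Ndufa8 0.92, Ndufv3 0.69 and Ndufa12 0.23. Of 15 labels for assembly factors 12 were tested, 7 lay above 0 with a median of 0.08, and none was called; Ndufaf5 had -1.38 (SE 0.68), Acad9 -1.54, Foxred1 -1.42 and Ndufaf4 0.30.

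Labels for the making and decay of mitochondrial RNA showed no call either. Of 27 labels 16 were tested, 7 lay above 0 and the median was -0.10. Supv3l1, a helicase of mitochondrial RNA decay, had 0.47 (SE 0.30), Tfam, which packs mitochondrial DNA and starts its transcription, 0.81 (SE 0.53), Fastkd3 -1.24 (SE 0.84) and Twnk, the helicase of mitochondrial DNA replication, 0.47 (SE 0.36). Ndufv1, Ndufa8, Ndufv3, Ndufaf5, Acad9, Foxred1 and Fastkd3 rested on 41 to 92 counts over all libraries.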

How the data were processed

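Total RNA of hippocampal microglia was sequenced in 6 libraries, which the sample titles assign to Ctrl or FGR. A stranded SMARTer total RNA kit (v2) was used, per the labels' protocols. The authors deposited whole-number counts per Ensembl ID, not normalized. The submitters' processing notes name the build mm10, HTSeq 2.0.3, Bowtie2 2.4.5, DESeq2 1.32.0, Trim Galore 0.6.5 and SAMtools 1.3.1. For the annotation, the strand setting and reads with several matches, the choice is not given in the sources used here.

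Symbols matched 53620 of 54590 IDs. Positions and sequences are those of GENCODE M21 (GRCm38). Copies were sought with BLAST 2.17.0 at 70% identity or more. Libraries 1 and 2 of each group were summed. The main test was edgeR 4.0.16's quasi-likelihood test (filterByExpr, TMM, robust, bias-adjusted deviances, R 4.3.3). Benjamini-Hochberg adjustment ran over all features, with a threshold of 0.05. The test was also run on simulated data with changes larger than the members' fold changes. That run does not show the test's power for changes as small as theirs. TMM-scaled CPM of libraries 1 and 2 use the factor of their summed sample. The SE is the log2 fold change over the square root of F. limma 3.58.1, DESeq2 1.42.0, other scalings and filters, separate libraries, each library left out and a replicate block were alternatives.

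Deviations from group means correlated at 0.214, 0.173 and 0.481 between libraries of number 1, 2 and 3. They also correlated at 0.208 and 0.196 between numbers 1 and 2. In both groups, then, libraries 1 and 2 differed from library 3 in a partly shared way. Library 3 was also the deepest of each group, with 10201412 counts in Ctrl and 11364316 in FGR. The part of depth in these correlations was not tested. Each number's correlation being over 0.1, the libraries were treated as paired by set in the replicate block. This pairing comes from the counts, not from a label. Named genes were the members, the other mitochondrial mRNAs and ribosomal RNAs, up to 4 of each nuclear list with the smallest p, label-check markers and the 5 features most alike; 1 value that this rule selects is not reported here. Members and lists were chosen with earlier results of these data known.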

Additional observations from a re-analysis of the deposited data

How the results depend on the processing

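The 6 members gave 96 log2 fold changes under 16 alternatives each, 89 above 0 and 6 below, and none passed the threshold. Those below 0 were mt-Nd2 with library totals (-0.018) and mt-Nd3 with library totals (-0.033), a filter of 10 CPM in 2 samples (-0.017), all 6 libraries (-0.04), the replicate block over all 6 libraries (-0.026) and without FGR library 3, where its range with each library left out was -0.172 to 0.094. The summed family kept its sign under all 16, from 0.05 to 0.20. The count of called features was 1 with the replicate block on summed pairs and 1 with it on 6 libraries, and 0 otherwise; features with an unadjusted p under 0.05 were 327, but 55 with the filter of 10 CPM, 932 with no filter, 602 with all 6 libraries, 1049 and 1360 with the replicate block on summed pairs and on 6 libraries, 2631 without Ctrl library 3 and 124 without FGR library 3. The family's share of all counts, FGR minus Ctrl, ranged from -0.058 percentage points without Ctrl library 3 to 0.075. Within the family, the difference for mt-Nd4l ranged from -0.082 (without FGR library 1) to 0.082 and was -0.038 without Ctrl library 2, and that for mt-Nd4 ranged from -2.14 to 0.111 (without FGR library 3). With each library left out, the difference ranged from -1.04 to -0.250 for mt-Nd1, -0.947 to -0.043 for mt-Nd2, -0.137 to -0.032 for mt-Nd3 and 1.18 to 3.20 for mt-Nd5, and from -2.49 to -0.684 for the share of the 12 heavy-strand mRNAs. Leaving out a library 3 leaves its group with 1 sample, which is assumed to vary like the other group. The causes were not tested. Depth limits mt-Nd3 most, with 90 to 776 counts per library.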

Other observations

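Over the 6 libraries, the 5 named nuclear labels whose centred log2 TMM-scaled CPM lay closest to that of the summed complex I mRNAs were Rbm25, Uso1, Sp9, Cep152 and Hdlbp, out of 3921 labels with at least 1000 counts. Their root mean square differences were 0.030, 0.037, 0.039, 0.039 and 0.043 on the log2 scale, against a median of 0.249 over those labels. The 6 libraries make up 4 samples, and the labels of nuclear rows are not borne out by the markers, so this is a description of rows only.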
